A study of Mus musculus with 4 samples.

Results

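Levels of 10 genes of glutathione metabolism and oxidative stress defence were followed through single-cell RNA sequencing of adult mouse skin epidermis: Slc7a11, Gclc, Gclm, Gsta4, Gstm1, Gpx2, Txnrd1, Srxn1, Nqo1 and Hmox1. They were taken by symbol from a list, and 10 of 10 were found among the 32285 genes of each of the 4 matrices. Their level was read in keratinocyte compartments, hair follicle and immune cells, and compared between experimental and control cells within each time point. The study sequenced control epidermis and epidermis in which ΔNp63, the p63 isoform of epidermal stem cells, had been targeted, at 1 day and at 1 week, with 1 library per group. Controls were DNp63fl/fl mice, which carry the floxed allele without Cre. Experimental mice were DNp63fl/fl;K14-CreT2, in which the keratin 14 promoter directs a tamoxifen-activated Cre to basal keratinocytes. Both groups received tamoxifen by gavage at 200 mg/kg daily for 5 days, so that the drug was common to all 4 libraries. Mice were 2 to 17 months old with both sexes in equal parts per the labels, which do not give the number of animals behind a library.

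Transcripts were read from their 3′ end at 1 day (kit version 3.1) and from their 5′ end at 1 week (kit version 1.1), and no values were pooled across times. The matrices held 18413 to 33552 barcodes and 68191870 to 179736563 gene UMIs (unique molecular identifiers, each counting 1 captured transcript). Filtering left 21576 control and 23152 experimental cells at 1 day (4471 and 3451 UMIs per cell at the median), and 10411 and 9719 at 1 week (5026 and 2212). Libraries of a pair shared 299 barcodes at 1 day (0.928% of the smaller library) and 661 at 1 week (3.59%). Levels throughout are in CPM, the UMIs of a gene scaled by all gene UMIs summed over the cells of a class. Trp63, the targeted gene, was counted as a whole gene, which includes exons outside the deleted part. Its reads came from the 3′ end at 1 day and from the 5′ end at 1 week. It stood at 398 CPM in control and 127 in experimental keratinocytes at 1 day, and at 442 and 139 at 1 week. Xist had 6 UMIs in each 1-day library (0.0334 and 0.0416 CPM) while Y-linked genes were present in all 4, which goes against the mix of sexes in the labels for the 1-day pair. The 1-week libraries also differed, with Xist at 289 CPM in control and 143 in experimental cells and the Y-linked Ddx3y at 51.4 and 31.5, and the part of sex in the members' ratios was not tested. Intervals are exact 95% intervals that cover counting error only. With 1 library per group no test between conditions was possible, and no difference below has a replicate check. The log2 ratio is experimental over control, a gene was counted only where the pair of sums held at least 20 of its UMIs, and a ratio of at least 2-fold is what is counted as higher or lower.

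Glutathione is the main low-molecular-weight thiol of cells. Cystine enters through the exchanger whose transport subunit is Slc7a11. Glutamate-cysteine ligase (catalytic subunit Gclc, modifier subunit Gclm) joins cysteine to glutamate in the first step of glutathione synthesis. Transferases such as Gsta4 and Gstm1 or peroxidases such as Gpx2 use the finished glutathione. Txnrd1 keeps thioredoxin reduced, Srxn1 repairs over-oxidised peroxiredoxins, Nqo1 reduces quinones, and Hmox1 breaks down haem. The transcription factor NRF2, encoded by Nfe2l2 and held in check by Keap1, is known to switch on most of these genes through antioxidant response elements, and is a known contributor to keratinocyte and barrier defence.

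The letters of that element were looked up in the promoters of the members, since these genes are often described as a common target set. RefSeq windows of 300 bases (250 before and 50 after a start site, assembly GRCm38.p6) were matched by symbol for 7 of the 10 members, in 10 windows, and Gsta4, Hmox1 and Gclc had no entry. The searched motif was TGAC, then any 3 bases (N), then GC, on either strand. It was found in 3 of the 7 genes, against 14.0% of 27025 genes with a window and 12.4% of 32851 windows. Upstream sequences are shown for the 3 genes with a match because they are members whose levels are followed in detail below. They are printed 5′ to 3′ on the gene's strand, in lower case with the match in capitals, read on the opposite strand of the motif as spelled.
Gclm, chr3:122245307-122245556, plus strand: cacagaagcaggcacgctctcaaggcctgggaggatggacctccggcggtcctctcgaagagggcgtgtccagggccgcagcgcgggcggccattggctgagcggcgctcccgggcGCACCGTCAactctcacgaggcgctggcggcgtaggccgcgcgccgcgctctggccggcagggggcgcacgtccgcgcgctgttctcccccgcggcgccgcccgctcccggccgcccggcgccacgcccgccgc
Txnrd1, chr10:82858956-82859205, plus strand, the middle of its 3 windows: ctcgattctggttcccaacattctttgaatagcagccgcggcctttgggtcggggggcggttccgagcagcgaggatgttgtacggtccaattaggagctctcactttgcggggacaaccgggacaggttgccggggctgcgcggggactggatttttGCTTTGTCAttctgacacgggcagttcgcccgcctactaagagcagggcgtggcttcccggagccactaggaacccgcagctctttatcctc
Srxn1, chr2:152105274-152105523, plus strand: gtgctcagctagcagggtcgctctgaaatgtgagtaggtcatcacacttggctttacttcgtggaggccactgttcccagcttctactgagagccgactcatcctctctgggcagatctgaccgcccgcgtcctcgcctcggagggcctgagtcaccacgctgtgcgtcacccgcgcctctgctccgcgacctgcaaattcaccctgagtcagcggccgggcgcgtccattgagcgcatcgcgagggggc
In Gclm the match GCACCGTCA began at position -134 from the start site, and in Txnrd1 the match GCTTTGTCA began at position -92. Srxn1 has no capitals because its match, GCTAGGTCA, lay at position 28 after the start, outside the printed stretch. A match is a description of letters and does not show that a factor is bound there. Other spellings of the element were not searched, so a stretch without a match may still hold one.

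Over all keratinocytes at 1 day, 4 of the 10 genes were at least 2-fold higher in experimental cells (Gpx2, Txnrd1, Srxn1 and Hmox1), where 6.09% of the 14788 genes counted were higher. A further 2 were at least 2-fold lower (Slc7a11 and Gsta4), where 3.15% of all genes were lower. The median log2 ratio of the 10 genes was 0.21, beside 0.00 over all genes. At 1 week 4 genes were higher (Gsta4, Gpx2, Nqo1 and Hmox1), where 9.99% of all genes were, and 0 were lower, where 5.92% were. Their median was then 0.74, beside 0.08 over all genes. In these sums Gpx2 and Hmox1 were past 2-fold at both times, and Gsta4 was past it at both times in opposite directions. At 1 week Gpx2 was within 2-fold in hair follicle and in cycling cells, as given below. Over 19 other choices of scaling, filters and cells at 1 day, the count of higher genes was below 4 in 12 and above it in 0. Gpx2 was past 2-fold higher in 8 and Hmox1 in 18, while Slc7a11 and Gstm1 were each past 2-fold lower in 13. The experimental keratinocytes also differed in make-up. The summed level of the granular-layer marker list was 2131 in control and 8814 in experimental cells at 1 day, and 1525 and 10741 at 1 week. That of the basal marker list was 11550 and 6074 at 1 day, and 21697 and 16403 at 1 week. A list of 10 early response genes known to respond to tissue dissociation summed to 2791 and 3898 at 1 day, and to 7337 and 9144 at 1 week. The part of any of these in the members' ratios was not tested beyond the class, cluster and cell values given below.

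**Figure D1:**
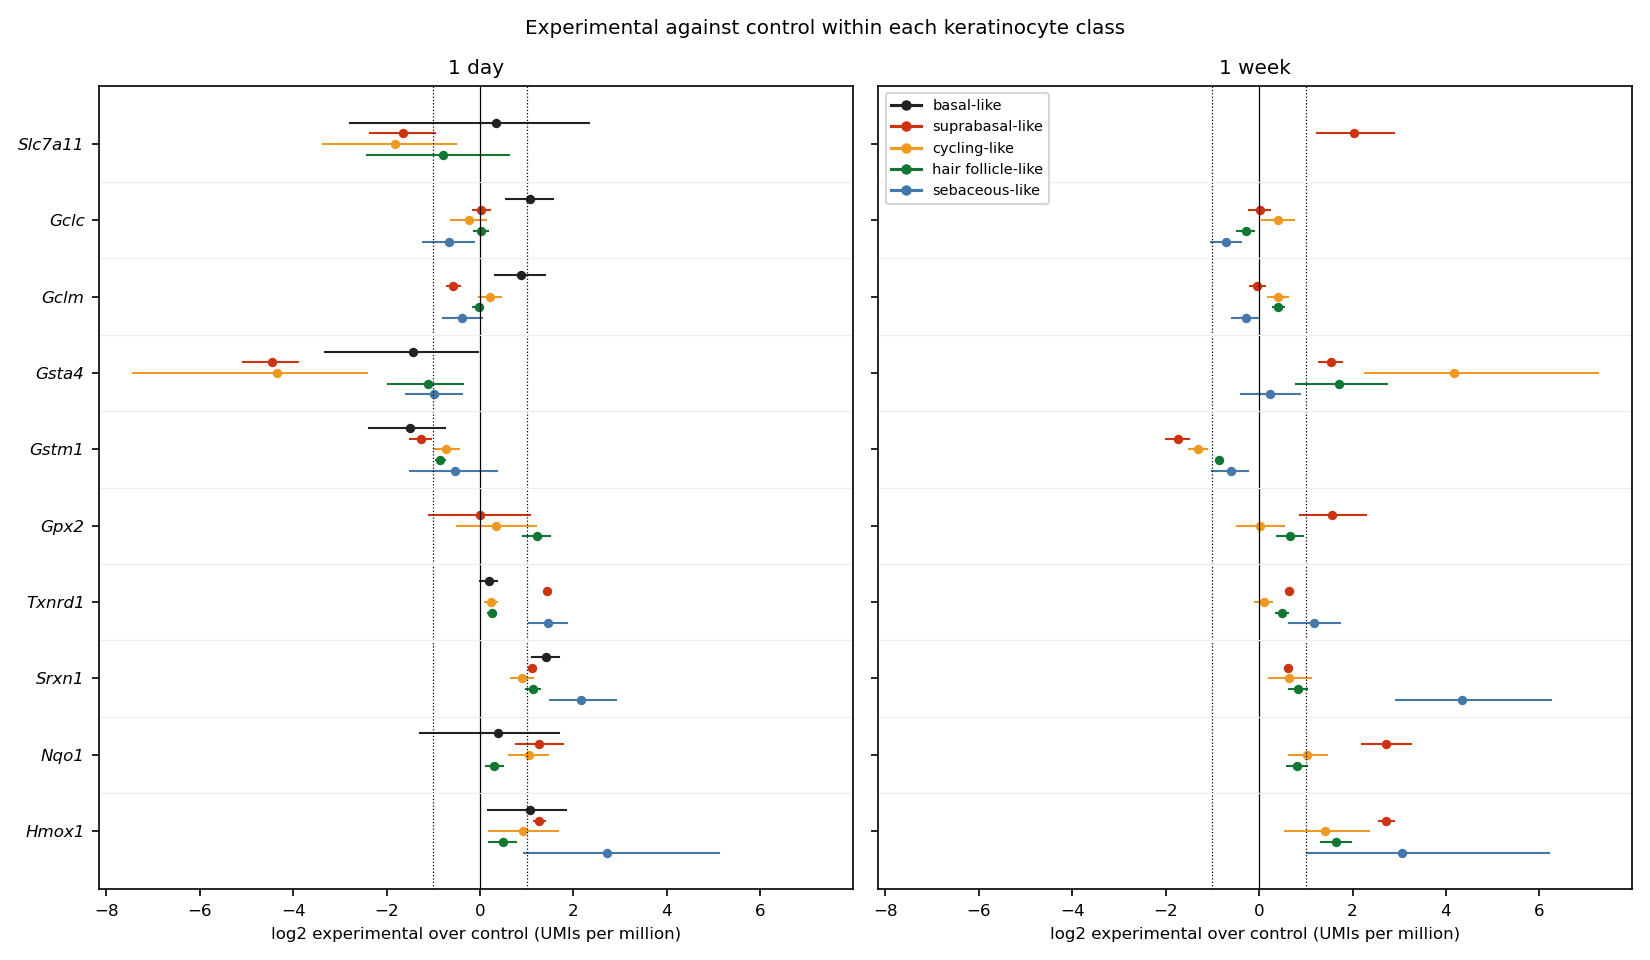
Log2 ratio of experimental over control level (x axis) for each of the 10 genes (y axis) in 5 keratinocyte classes, at 1 day (left) and 1 week (right); points are ratios of class sums from 1 library per group, bars are 95% counting intervals, and dotted lines mark 2-fold. Gsta4 in suprabasal-like cells lies at -4.46 at 1 day and at 1.53 at 1 week, and the Hmox1 points all lie to the right of 0.

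Cells were placed in classes from the markers of their clusters and are called by the class they resemble. At 1 day the basal-like class held 4672 control and 391 experimental cells, the suprabasal-like class 5847 and 7070, and the hair follicle-like class 7846 and 5102. At 1 week the basal-like class held 2156 control and 24 experimental cells, too few to read, the suprabasal-like class 1884 and 1327, and the hair follicle-like class 2352 and 1889. Different clusters held most of the suprabasal-like cells of the compared libraries: at 1 day control cells were mostly in 3 clusters led by genes such as Mt4, Krt1, Ivl and Tesc, and experimental cells mostly in 1 led by Slpi and Sprr2d. At 1 week the control cells lay mostly in clusters led by Mt4, Krt1 or Ivl, and the experimental cells in clusters led by Lor or Krt6b. A cluster group led by Krt8, with 6 control and 4965 experimental cells at 1 day, was left out of the keratinocyte sums. The suprabasal-like cluster of 4584 experimental cells at 1 day was likewise filled almost wholly by 1 library, but was kept in its class. Clusters of low UMI content (a median under 3000), with 546 control and 4784 experimental cells at 1 week (49.2% of the experimental cells), were also left out. This limit was applied at 1 week only, and at 1 day the experimental hair follicle-like cells had a median of 2812 UMIs. In the low-UMI cells left out at 1 week Hmox1 read 14.1 and 78.4, Nqo1 7.69 and 23.7, and Gsta4 7.69 and 24.0.

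Across classes at 1 day the counts differed. Of the 9 genes with enough UMIs in basal-like cells, 3 were higher (Gclc, Srxn1 and Hmox1; background 4.99%) and 2 lower (Gsta4 and Gstm1; background 4.73%). In suprabasal-like cells 4 were higher (Txnrd1, Srxn1, Nqo1 and Hmox1; background 9.41%) and 3 lower (Slc7a11, Gsta4 and Gstm1; background 5.01%). Hair follicle-like cells had 2 higher (Gpx2 and Srxn1; background 3.08%) and 1 lower (Gsta4; background 1.24%). Srxn1 was therefore past 2-fold higher, and Gsta4 past 2-fold lower, in all 3 classes. The Gsta4 call in hair follicle-like cells rests on 68 and 18 UMIs and on 1 cluster with enough UMIs, and its levels by hashtag, a tag that splits each 1-day library, overlapped (1.09 to 2.68 in control and 0 to 1.82 in experimental cells). The part of free RNA in so low a level was not tested. At 1 week 5 of 10 were higher in suprabasal-like cells (Slc7a11, Gsta4, Gpx2, Nqo1 and Hmox1; background 11.1%) and 1 was lower (Gstm1; background 9.65%). In hair follicle-like cells at 1 week 2 of 9 were higher (Gsta4 and Hmox1; background 4.05%) and 0 lower (background 3.82%).

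**Figure D2:**
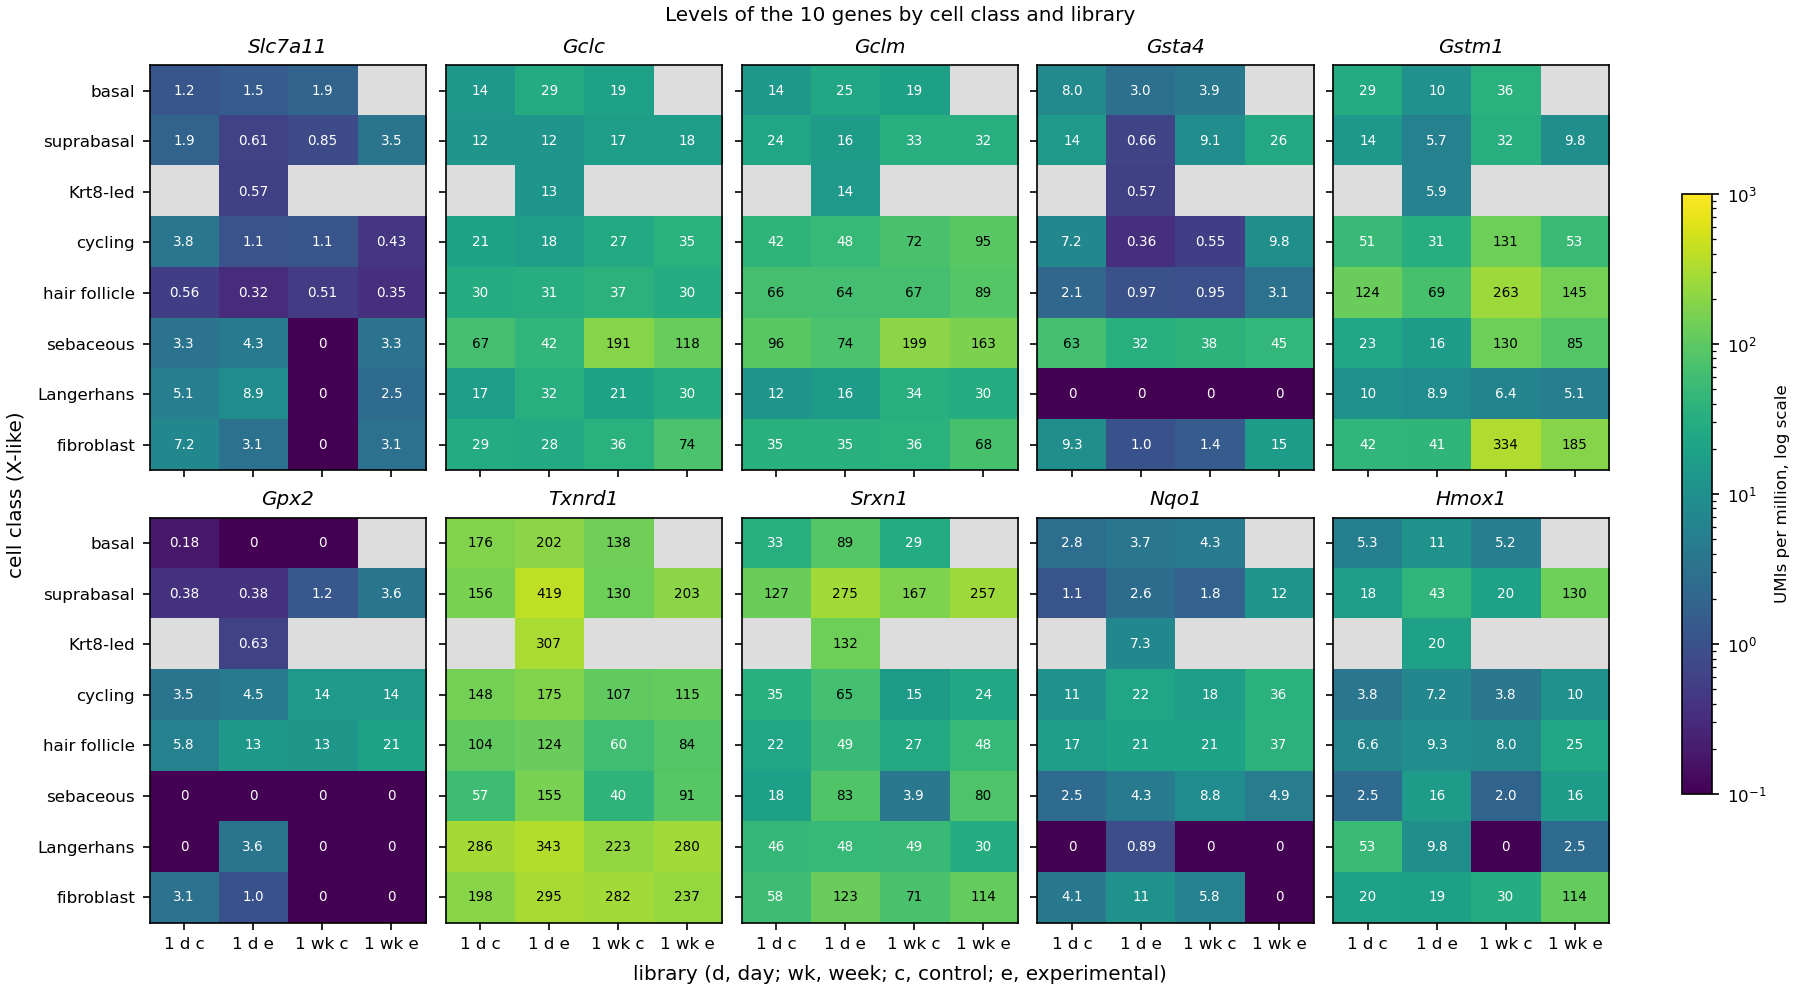
Level of each gene (colour on a log scale, with the value in CPM written in) by cell class (rows) and library (columns); each cell of the map is 1 class sum and grey marks classes with fewer than 50 cells. Gclc and Gclm are highest in sebaceous-like cells among the classes drawn, Gsta4 is at 0 in Langerhans-like cells in all 4 libraries, and Srxn1 is highest in suprabasal-like cells.

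Of the glutathione synthesis genes, Slc7a11 (chr3:49892526-50443614, GRCm38, protein coding as are all 10) was scarce in keratinocytes. It stood at 1.48 CPM in control and 0.670 in experimental keratinocytes at 1 day (172 and 47 UMIs), a log2 ratio of -1.15 with an interval from -1.64 to -0.67. In suprabasal-like cells the values were 1.90 and 0.610 (89 and 24 UMIs, log2 ratio -1.64), and in cycling cells 3.75 and 1.07 (29 and 6 UMIs). Split by the hashtags that the 1-day libraries carry, the suprabasal-like levels overlapped, at 0.478, 1.24 and 3.21 in control and 0.197, 0.688 and 0.783 in experimental cells, with 45 UMIs in the highest control subset. At 1 week the suprabasal-like values lay the other way, at 0.846 and 3.47 (18 and 57 UMIs, log2 ratio 2.04, interval 1.25 to 2.89). Without the clusters led by loricrin, a granular-layer gene, that log2 ratio was 3.48 (18 and 50 UMIs). Of the 57 UMIs, 71.9% came from 1 cluster of 147 experimental cells led by Krt6b and Prl2c3, and 54.4% from 10 cells. The transporter was thus read from few molecules at either time, and its direction differed between the times.

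Gclc, the catalytic subunit (chr9:77754535-77794485), was nearly level over all keratinocytes, at 19.3 and 18.8 CPM at 1 day and at 26.6 and 28.3 at 1 week. Only in basal-like cells at 1 day did it pass 2-fold among the keratinocyte classes, with 13.7 in control and 28.9 in experimental cells (304 and 39 UMIs, log2 ratio 1.08, interval 0.56 to 1.56). Of the 39 UMIs, 46.2% came from 10 cells, and 277 and 21 UMIs remained without the 10 highest cells of each library. Among keratinocyte classes, sebaceous-like cells, which make the lipid of sebum, held the most of it. There it stood at 66.8 and 42.2 at 1 day and at 191 and 118 at 1 week, lower in the experimental library at both times by less than 2-fold. Outside the keratinocytes, endothelial-like cells at 1 week read 76.8 in control and 122 in experimental cells, from 16 and 40 UMIs. Hair follicle-like cells showed 30.3 and 30.9 at 1 day and 36.6 and 29.8 at 1 week. Their 5 clusters at 1 week did not lie on one side, with 3 higher and 2 lower (log2 ratios -1.12 to 1.31). A cluster of 761 control and 660 experimental cells read 63.4 and 29.1, and one of 171 and 132 cells read 28.0 and 69.6 (34 and 52 UMIs).

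Gclm, the modifier subunit (chr3:122245557-122270732), followed the same order of compartments, with most in sebaceous-like and least in basal-like and suprabasal-like cells. At 1 day it read 96.1 and 74.0 in sebaceous-like, 65.7 and 64.2 in hair follicle-like, 23.6 and 15.9 in suprabasal-like and 13.8 and 25.2 in basal-like cells. Over all keratinocytes it was 35.4 and 32.7 at 1 day, and 42.9 and 68.1 at 1 week (2370 and 2651 UMIs, log2 ratio 0.67). The 1-week difference was within 2-fold and was larger than in any keratinocyte class read. The log2 ratio was 0.41 in hair follicle-like and 0.40 in cycling cells, and 5 of 5 hair follicle-like clusters with enough UMIs were higher (0.18 to 0.73). Suprabasal-like cells read 32.7 and 31.9 and sebaceous-like cells 199 and 163. The 1-week sum held 2156 control and 24 experimental basal-like cells, a class low in Gclm, and the part of this mix was not tested. Across 37 class sums of the 4 libraries, centred within each time point, Gclc and Gclm had a Pearson correlation of 0.74, the highest among pairs of members. The points share libraries and depth, and no p is given.

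Of the genes that use glutathione, Gsta4 (chr9:78182774-78209349), a transferase known for its activity on the lipid peroxidation product 4-hydroxynonenal, had the largest log2 difference of the 10 genes over all keratinocytes at 1 day. It stood at 9.46 in control and 1.30 in experimental keratinocytes (1098 and 91 UMIs), 7.30-fold lower, with a log2 ratio of -2.87 (interval -3.19 to -2.56). In suprabasal-like cells the levels were 14.5 and 0.660 (680 and 26 UMIs, log2 ratio -4.46, interval -5.08 to -3.89). It was also lower in basal-like cells (7.96 and 2.96, from 177 and 4 UMIs), in hair follicle-like cells (2.11 and 0.971), in cycling cells (7.25 and 0.357, from 56 and 2 UMIs) and in sebaceous-like cells (62.7 and 31.8, log2 ratio -0.98). The cycling cells also differed in make-up, with the basal marker list at 23575 and 10303 and Krt8 at 1.68 and 968. The lower side held in each of the 4 suprabasal-like clusters that could be compared. Where both libraries held UMIs the log2 ratios were -2.55 and -1.35, smaller than that of the class. The rest held 0 experimental UMIs, beside 120 and 87 in control. With every cell thinned to 1500 UMIs, 2.10% of control and 0.127% of experimental suprabasal-like cells kept a Gsta4 UMI, and the unthinned shares were 7.53% and 0.325%, from cells with a median of 6452 and 4568 UMIs. In Langerhans-like cells no UMI was seen in 354 control or 445 experimental cells. This allows a share of cells with a UMI of up to 0.847% and 0.674% at the thinned depth.

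At 1 week Gsta4 was higher in experimental keratinocytes, at 5.58 and 15.4 CPM (308 and 600 UMIs, log2 ratio 1.47, interval 1.27 to 1.67). The suprabasal-like levels were 9.07 and 26.1 (193 and 429 UMIs, log2 ratio 1.53). These molecules were concentrated: 114 of 1327 experimental cells held them, and 1 cell held 80. Of the 429 UMIs, 48.3% lay in a cluster of 77 experimental cells led by Krt6b, Sprr2d and S100a9, where the level was 739. A further 196 lay in the cluster of 147 experimental cells led by Krt6b and Prl2c3, at 42.7. The experimental clusters of 621 and 382 cells read 0.743 and 9.48 (7 and 16 UMIs), beside 9.07 in all control suprabasal-like cells. Leaving out the 10 highest cells of each library gave a log2 ratio of 0.99 in suprabasal-like cells and in all keratinocytes, just within 2-fold. Leaving out the loricrin-led clusters instead gave larger ratios, with 9.10 and 77.8 CPM in suprabasal-like cells (log2 interval 2.84 to 3.35) and a log2 ratio of 1.90 in all keratinocytes. Hair follicle-like cells read 0.947 and 3.12 (13 and 44 UMIs) and cycling cells 0.545 and 9.83 (2 and 68 UMIs, of which 10 cells held 79.4%). Sebaceous-like cells, again the highest control class, differed little (38.3 and 45.2).

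Gstm1 (chr3:108012255-108017973), a mu-class transferase, had its highest level among the named keratinocyte classes in the hair follicle and was lower in the experimental cells of each keratinocyte class read at either time. Hair follicle-like cells held 124 and 68.6 CPM at 1 day (log2 ratio -0.85) and 263 and 145 at 1 week (log2 ratio -0.85 again). The lower side held in 8 of 8 follicle-like clusters at 1 day, with log2 ratios from -1.68 to -0.08. At 1 week 4 of 5 were lower, and the other, of 761 control and 660 experimental cells, was higher (99.1 and 130, log2 ratio 0.39, interval 0.17 to 0.60). Basal-like cells read 29.2 and 10.4 at 1 day (log2 ratio -1.49), and suprabasal-like cells 13.8 and 5.74 at 1 day (log2 ratio -1.27) and 32.5 and 9.75 at 1 week (log2 ratio -1.74). Over all keratinocytes the log2 ratio was -0.98 at 1 day, just inside the 2-fold limit, and -0.52 at 1 week. Of the 60-base stretches of Gstm1 transcripts, 15.6% also occur in another gene, mainly the pseudogene Gstm2-ps1 (11.3%), so part of its counts depends on how such reads were assigned.

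Gpx2 (chr12:76792333-76795554), a glutathione peroxidase known mainly from gut epithelium, was a rare transcript found mostly in hair follicle-like and cycling cells. Hair follicle-like cells held 5.81 and 13.4 CPM at 1 day (187 and 249 UMIs, log2 ratio 1.21, interval 0.93 to 1.49) and 13.1 and 20.7 at 1 week (180 and 292 UMIs, log2 ratio 0.66). Cycling cells held 27 and 25 UMIs of it at 1 day (log2 ratio 0.35), and read 14.2 and 14.5 at 1 week (52 and 100 UMIs). In the follicle it was higher in 6 of 6 follicle-like clusters at 1 day and in 4 of 4 at 1 week. Between the hashtag subsets of the 1-day follicle-like cells the levels overlapped, at 1.09, 1.43 and 13.8 in control and 2.08, 10.5 and 21.1 in experimental cells, and the highest control subset held 108 UMIs. The highest 1-day level, 84.1 in control and 106 in experimental cells, was in a follicle-like cluster of 117 and 223 cells led by Pinlyp and Pdzrn3. In suprabasal-like cells it was at 0.384 and 0.381 at 1 day, and at 1.22 and 3.59 at 1 week (26 and 59 UMIs). Over all keratinocytes the log2 ratio was 1.03 at 1 day and 1.31 at 1 week. The 1-week value was past 2-fold although hair follicle-like and cycling cells were within it. The control sum then held 2156 basal-like cells with 0 Gpx2 UMIs, beside 24 basal-like cells in the experimental sum, and the part of this mix was not tested.

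**Figure D3:**
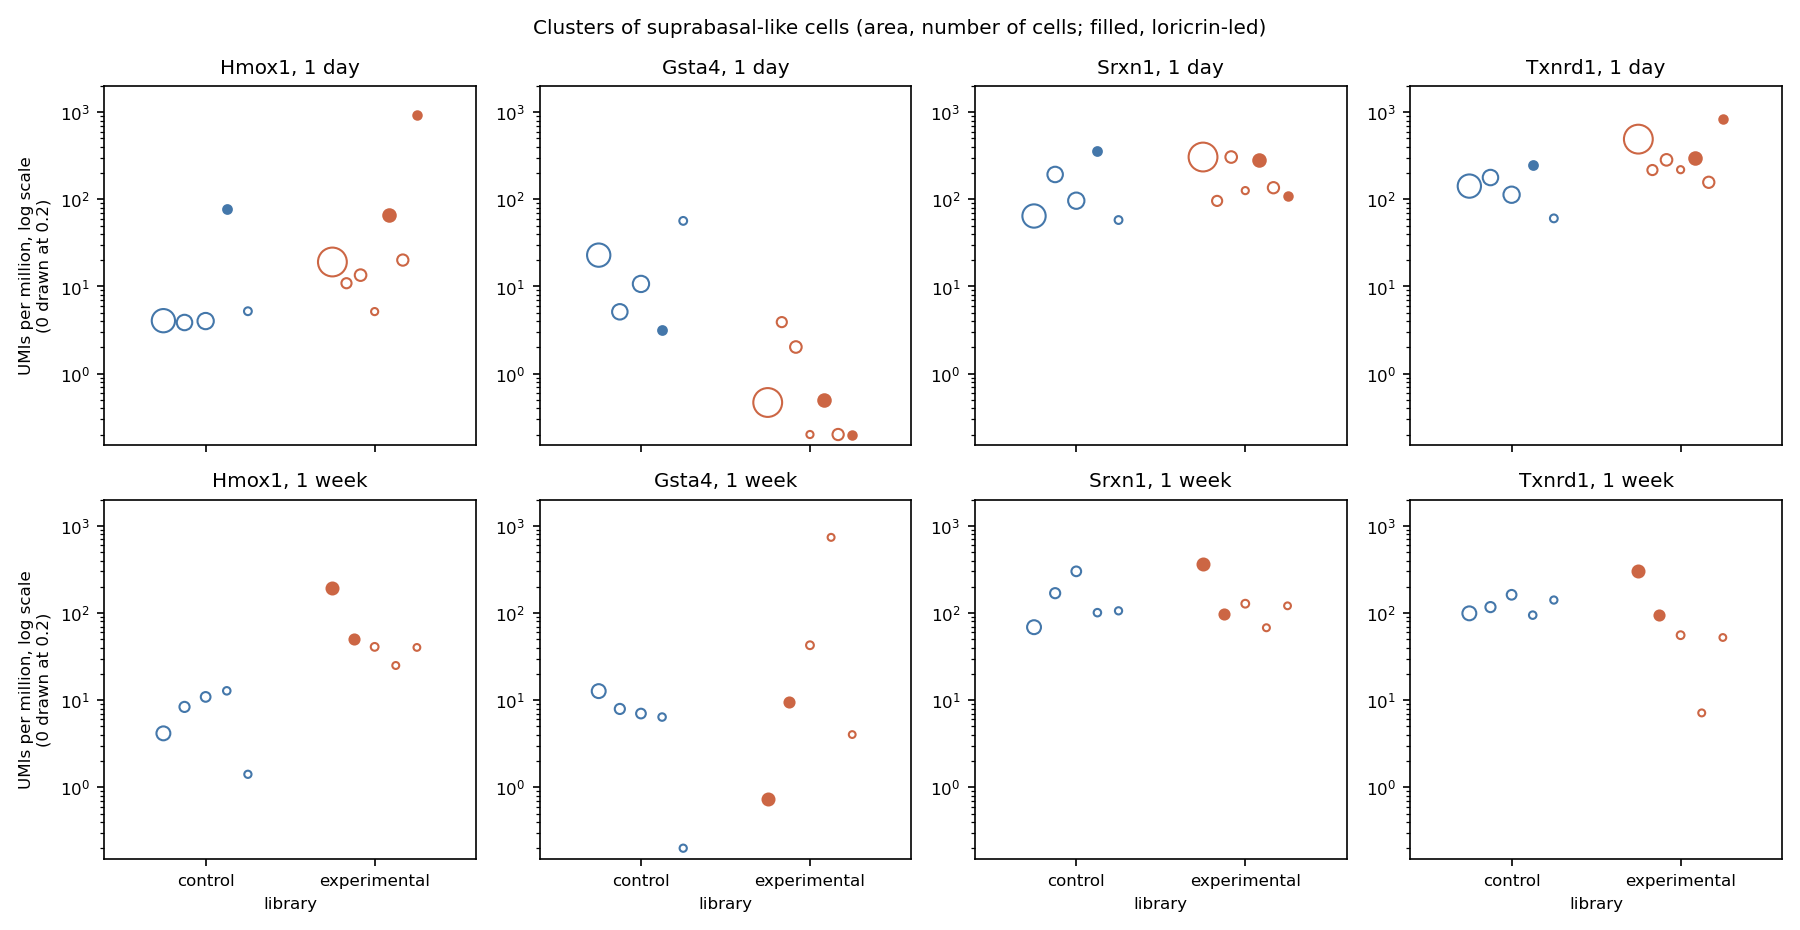
Level of Hmox1, Gsta4, Srxn1 and Txnrd1 in CPM (log axis, 0 drawn at the bottom) in the clusters of suprabasal-like cells with at least 50 cells, by library and time point; the area of a circle shows the number of cells and filled circles are clusters led by loricrin and late cornified envelope genes. The filled circles hold the highest Hmox1 levels (931 in experimental cells at 1 day and 195 at 1 week), and the open circle at 739 is the Krt6b-led cluster with the highest Gsta4 level at 1 week.

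Of the thioredoxin pair, Txnrd1 (chr10:82833951-82897712) was among the most abundant members. It stood at 139 in control and 294 in experimental keratinocytes at 1 day (16187 and 20635 UMIs), a log2 ratio of 1.08 with an interval from 1.05 to 1.11. Among the keratinocyte classes it was past 2-fold in suprabasal-like cells (156 and 419, log2 ratio 1.43) and sebaceous-like cells (56.8 and 155, log2 ratio 1.45). Basal-like cells read 176 and 202 and hair follicle-like cells 104 and 124. Of 8 follicle-like clusters 7 were higher (log2 ratios -0.01 to 2.41 over the 8). Those of 691 and 346 cells (15.9 and 67.3) and of 117 and 223 cells (14.4 and 76.5) were past 2-fold. In the sebaceous-like cells the suprabasal marker list also summed to 3031 in control and 15522 in experimental cells, and the granular list to 169 and 2871. The part of such transcripts in the ratio was not tested. Txnrd1 was higher in 5 of 5 suprabasal-like clusters with at least 50 cells in both libraries, but past 2-fold in only 1 (log2 ratio 1.38, beside 0.24 to 0.95 in the others). Of the experimental suprabasal-like Txnrd1 UMIs, 76.8% lay in a cluster of 4584 experimental and 4 control cells, which could not be compared. At thinned depth, 18.8% of control and 37.9% of experimental suprabasal-like cells kept a Txnrd1 UMI. At 1 week the keratinocyte levels were 111 and 140 (log2 ratio 0.33), and 5 of 5 follicle-like clusters were higher (log2 ratios 0.15 to 2.48).

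Srxn1, sulfiredoxin (chr2:152105516-152111376), was the member past 2-fold higher in the most keratinocyte classes at 1 day. Keratinocytes held 70.7 in control and 184 in experimental cells (8207 and 12941 UMIs, log2 ratio 1.38, interval 1.34 to 1.42). By class it read 33.4 and 88.9 in basal-like, 127 and 275 in suprabasal-like, 22.2 and 48.8 in hair follicle-like and 18.4 and 82.6 in sebaceous-like cells. The log2 ratios were 1.41, 1.11, 1.14 and 2.17. The granular marker list was also higher in the experimental cells of these classes: 149 and 556, 4451 and 14001, 417 and 1393, and 169 and 2871, in the same order. Its part in the ratios was not tested. Srxn1 was higher in 8 of 8 follicle-like clusters (log2 ratios 0.81 to 1.81) and in 4 of 5 suprabasal-like ones (log2 ratios -0.34 to 1.24). Of its experimental suprabasal-like UMIs, 72.7% lay in the cluster with 4 control cells. Langerhans-like cells read 45.7 and 48.0. The thinned share of suprabasal-like cells with a UMI was 13.8% in control and 28.5% in experimental cells (40.0% and 56.8% unthinned), beside 6.78% and 6.29% of Langerhans-like cells with medians of 2499 and 2229 UMIs per cell.

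At 1 week Srxn1 stood at 80.4 and 133 in keratinocytes (log2 ratio 0.73). Both members of the pair then depended on clusters led by loricrin (Lor) and late cornified envelope genes, which mark the granular layer. These held 15 control and 1030 experimental cells, with 56.1% of the experimental keratinocytes' Txnrd1 UMIs and 69.3% of their Srxn1 UMIs. Without them the keratinocyte levels were 109 and 86.5 for Txnrd1 (log2 ratio -0.34) and 79.6 and 57.4 for Srxn1 (log2 ratio -0.47). In suprabasal-like cells, the class that holds these clusters, the remaining cells read 124 and 52.9 for Txnrd1 (log2 ratio -1.23, past 2-fold lower, beside 0.65 with them) and 166 and 123 for Srxn1 (log2 ratio -0.44, beside 0.62). The removal was uneven, since a cluster of 341 control cells that held 50.2% of the control keratinocytes' Srxn1 UMIs is not led by loricrin and stayed in. At 1 day, where such clusters held 264 control and 901 experimental cells, leaving them out gave log2 ratios of 1.09 for Txnrd1 and 1.47 for Srxn1. In hair follicle-like cells at 1 week, which hold none of these clusters, Txnrd1 read 59.8 and 83.7 (log2 ratio 0.49) and Srxn1 27.0 and 48.3 (log2 ratio 0.84). Sebaceous-like cells, also outside them, read 3.93 and 79.7 of Srxn1 (4 and 97 UMIs, log2 ratio 4.34) and 40.3 and 91.3 of Txnrd1 (log2 ratio 1.18), from 104 and 74 cells.

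Nqo1 (chr8:107388225-107403206), the quinone reductase often used as a readout of NRF2, was higher in hair follicle-like and cycling cells than in the other keratinocyte classes. Outside the keratinocytes, endothelial-like cells at 1 week read 48.0 and 36.5 CPM of it, from 10 and 12 UMIs. At 1 day keratinocytes read 6.69 and 9.25 CPM (log2 ratio 0.47), cycling cells 10.9 and 22.3, hair follicle-like cells differed by a log2 ratio of 0.31 from a control level of 16.9, and suprabasal-like cells 1.09 and 2.62 (51 and 103 UMIs). The suprabasal-like clusters did not lie on one side. Both of those with at least 20 UMIs were lower (log2 ratios -0.77 and -0.35, with intervals that include 0). Of those with fewer, 1 was higher from 5 and 8 UMIs (log2 ratio 2.79, interval 1.00 to 4.75), 1 higher from 1 and 7 (log2 ratio 1.95, interval -1.01 to 7.45) and 1 lower from 11 and 0. At 1 week the keratinocyte levels were 8.42 and 24.9 (465 and 968 UMIs, log2 ratio 1.56, interval 1.40 to 1.73). Suprabasal-like cells then held 1.79 and 11.8 (38 and 193 UMIs, log2 ratio 2.72, interval 2.21 to 3.26), hair follicle-like cells 20.8 and 36.6, and cycling cells 17.7 and 36.3. Nqo1 was thus within 2-fold over all keratinocytes at 1 day and past it at 1 week, a difference between times that was not tested.

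Hmox1, haem oxygenase 1 (chr8:75093621-75100589), was higher in experimental keratinocytes at both times. The levels were 10.6 and 28.1 at 1 day (1228 and 1971 UMIs, log2 ratio 1.41, interval 1.30 to 1.51) and 11.3 and 66.1 at 1 week (624 and 2573 UMIs, 5.85-fold, log2 ratio 2.55, interval 2.42 to 2.68). Suprabasal-like cells read 17.6 and 42.6 at 1 day and 19.6 and 130 at 1 week. Basal-like cells read 5.31 and 11.1 at 1 day, and hair follicle-like cells 6.62 and 9.28 at 1 day and 8.01 and 24.9 at 1 week (log2 ratio 1.64).

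Much of Hmox1 lay in few cells of the granular layer, though 1036 of 14891 experimental keratinocytes held a UMI of it at 1 day. The loricrin-led clusters held 52.9% of the control and 53.4% of the experimental keratinocytes' Hmox1 UMIs at 1 day, and 40.7% and 74.8% at 1 week. At 1 day the level reached 1436 in 30 control cells and 931 in 206 experimental cells of the cluster led by Lce1m. In the other loricrin-led cluster of that time it was 76.7 and 66.6 (log2 ratio -0.20, interval -0.49 to 0.08). At 1 week 15 control cells of a loricrin-led cluster read 882, and its 621 experimental cells read 195. Of these clusters only that at 76.7 and 66.6 held at least 50 cells in both libraries, and there the level was not higher in experimental cells. The control levels of 1436 and 882 rest on fewer cells than were read elsewhere. At 1 week 10 control suprabasal-like cells held 62.7% of the Hmox1 UMIs of their class, with 111 in 1 cell. A loricrin-led cluster of 382 experimental cells at that time had 0 control cells. Without the loricrin-led clusters keratinocytes still read 5.10 and 14.1 at 1 day (log2 ratio 1.46) and 6.74 and 23.4 at 1 week (log2 ratio 1.80), and suprabasal-like cells 4.01 and 18.1 at 1 day (log2 ratio 2.18). In the experimental 1-week suprabasal-like cells, 372 of 1327 held a UMI and 1 cell held 202. Leaving out the 10 highest cells of each library gave a log2 ratio of 2.81 for keratinocytes at 1 week. The 6 macrophage markers, of a cell type rich in Hmox1, summed to 6.83 CPM in experimental suprabasal-like cells at 1 day and 9.26 at 1 week, beside 2.26 and 4.18 in controls.

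The 1-day libraries also carried hashtag counts, 4 features of which 3 had signal, and the labels do not say what each tag marks. A tag was called where it led the next by at least 1 on the log2 scale, which it did in 60.2% of passing control barcodes and 35.4% of experimental ones. Cells of the 3 tags gave 3 levels per library for each gene, as subsets of 1 library rather than replicates.

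**Figure D4:**
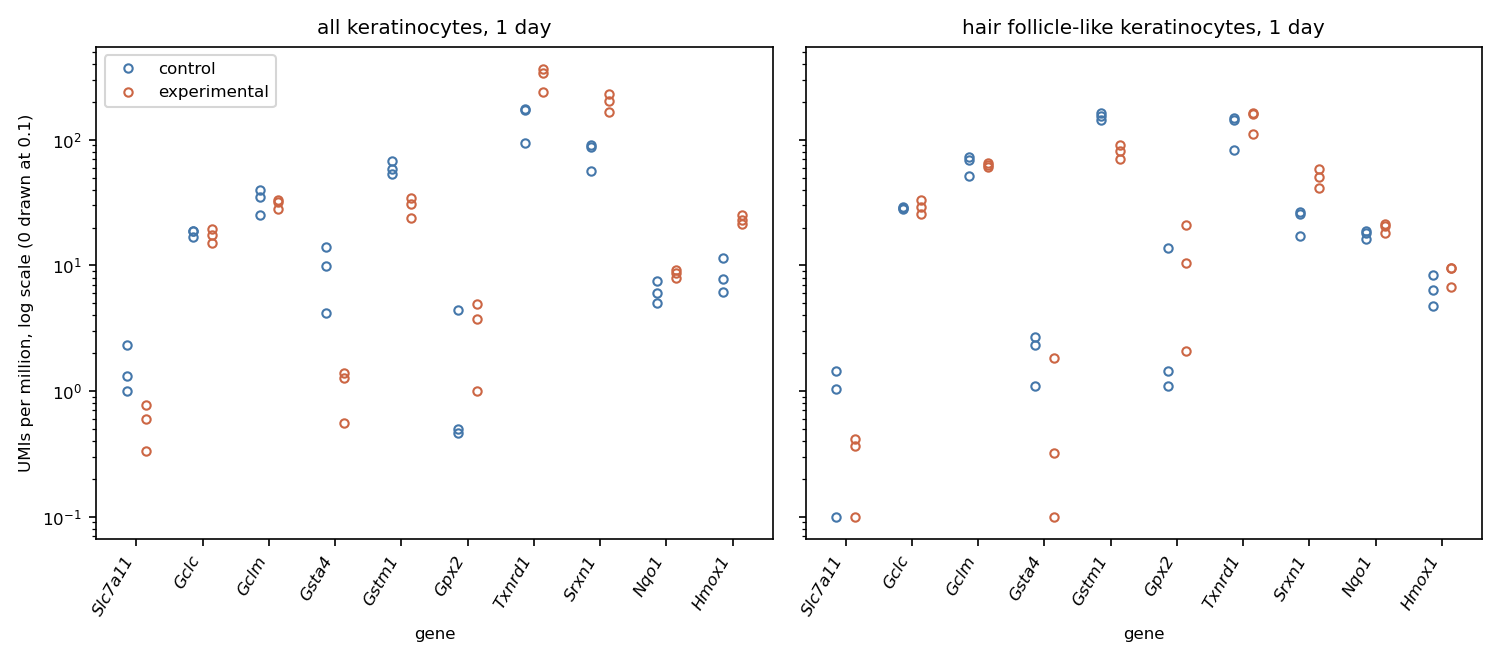
Level of each gene in CPM (log axis, 0 drawn at 0.1) in all keratinocytes (left) and hair follicle-like cells (right) of the 3 hashtags with signal in the 1-day libraries; each point is the sum over the cells of 1 hashtag. In all keratinocytes the Srxn1 points lie at 56.1 to 90.1 in control and 165 to 231 in experimental cells, while those of Gpx2 overlap (0.464 to 4.42 and 1.00 to 4.89).

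For 4 of the 10 genes all experimental hashtag levels in keratinocytes lay above all control levels (Txnrd1, Srxn1, Nqo1 and Hmox1), as did 16.7% of all 13855 genes counted. For 3 they lay below (Slc7a11, Gsta4 and Gstm1), as did 17.1% of all genes. Gsta4 ranged from 4.14 to 14.1 in control and from 0.556 to 1.38 in experimental hashtags, and Gstm1 from 53.2 to 67.9 and from 23.6 to 34.6. Txnrd1 ranged from 93.6 to 174 and from 239 to 363, Hmox1 from 6.14 to 11.5 and from 21.3 to 25.1, and Nqo1 from 5.05 to 7.57 and from 7.93 to 9.11. The margin between the groups was thus wide for Gsta4 and narrow for Nqo1. Among 9 genes in hair follicle-like cells, Srxn1 lay above without overlap (17.2 to 26.5 and 41.6 to 58.7; background 9.69%) and Gstm1 below (143 to 163 and 69.6 to 90.4; background 6.38%).

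In immune cells few members could be compared. In Langerhans-like cells 6 of 10 had enough UMIs at 1 day and 4 at 1 week. Langerhans-like cells, the resident antigen-presenting cells of the epidermis, were rich in Txnrd1, at 286 and 343 CPM at 1 day (281 and 386 UMIs) and 223 and 280 at 1 week. Their marker list summed to 99286 and 82362 CPM in them at 1 day, beside 146 and 171 in keratinocytes. They held 0 Gsta4 UMIs in all 4 libraries, and 0 to 1 of Nqo1. Hmox1 stood at 52.9 in control and 9.78 in experimental Langerhans-like cells at 1 day (log2 ratio -2.43), but the control value came from 52 UMIs in 6 of 354 cells, 22 of them in 1 cell, and the experimental value from 11 UMIs in 6 of 445 cells. Genes restricted to keratinocytes reached 5.16% to 25.5% of their keratinocyte level in control and 7.50% to 31.8% in experimental Langerhans-like cells at 1 day, and in sum 7.30% and 1.91% at 1 week. Whether these UMIs are free RNA or come from doublets was not tested. In T-like cells at 1 day those genes stood at 48.0% and 81.5% of their keratinocyte level, and the T-like cells of that time were not read. At 1 week, where the share was 6.70% and 9.73%, T-like cells held 54.7 and 116 of Txnrd1 (24 and 29 UMIs) and 27.3 and 64.0 of Gclm (12 and 16 UMIs). Of the classes read in both 1-week libraries, endothelial-like cells had the highest Hmox1 level, at 230 and 641 (48 and 211 UMIs in 53 and 66 cells, log2 ratio 1.48). That level rested on few cells: 10 cells held 91.7% of the control and 85.8% of the experimental UMIs, with 82 in 1 experimental cell, and 4 and 30 UMIs remained without those cells.

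The Krt8-led cells of the experimental 1-day library had no control counterpart to set them against. Txnrd1 stood at 307 CPM in them, beside 419 in experimental suprabasal-like cells and 294 in all experimental keratinocytes. In the same order Srxn1 read 132, 275 and 184, and Hmox1 19.7, 42.6 and 28.1. Gstm1 (5.89, 5.74 and 29.8) and Gsta4 (0.573, 0.660 and 1.30) were near the suprabasal-like level.

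The regulators and wider pathway were read in keratinocytes from a list of 89 other genes, 88 of them with enough UMIs. Nfe2l2, which encodes NRF2, stood at 120 in control and 98.3 in experimental cells at 1 day and at 122 in control cells at 1 week (log2 ratio -0.29 both times). Keap1, its inhibitor, read 10.6 and 11.5 at 1 day and 19.0 and 32.2 at 1 week, and Bach1, a repressor of Hmox1, 201 and 184 and then 137 and 140. None of the 3 passed 2-fold at either time. These are transcript levels, and NRF2 is known to be controlled mainly as a protein.

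Of the 88 counted pathway genes, 3 were higher at 1 day (Sqstm1, Gstk1 and Sod3) and 5 lower (Cbs, Gstm6, Mgst2, Mt3 and Mt4), with a median log2 ratio of -0.08. At 1 week 7 were higher and 8 lower, with a median of 0.17. The backgrounds are those of all keratinocytes given above. Past 2-fold the same way at both times were Sod3, the extracellular superoxide dismutase (0.577 and 1.74 at 1 day, and 4.86-fold above a control level of 1.36 at 1 week), Mt4, a metallothionein of stratified epithelium (278 and 31.9, then 140 and 7.89), Cbs, which feeds homocysteine towards cysteine (26.1 and 6.17, then 34.7 and 6.73), and Mt3, from only 26 and 7 UMIs at each time. Mt4 was among the genes leading the control suprabasal-like clusters. Other genes, named after their values were seen, were Sqstm1, whose product p62 binds Keap1 (150 and 359 at 1 day, log2 ratio 1.25), Glrx, glutaredoxin (12.2 and 72.7 at 1 week, log2 ratio 2.57), Mgst1 (116 and 333 at 1 week, log2 ratio 1.52), and the transferase Gsta2 (25.2 and 5.42 at 1 week, log2 ratio -2.22).

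**Figure D5:**
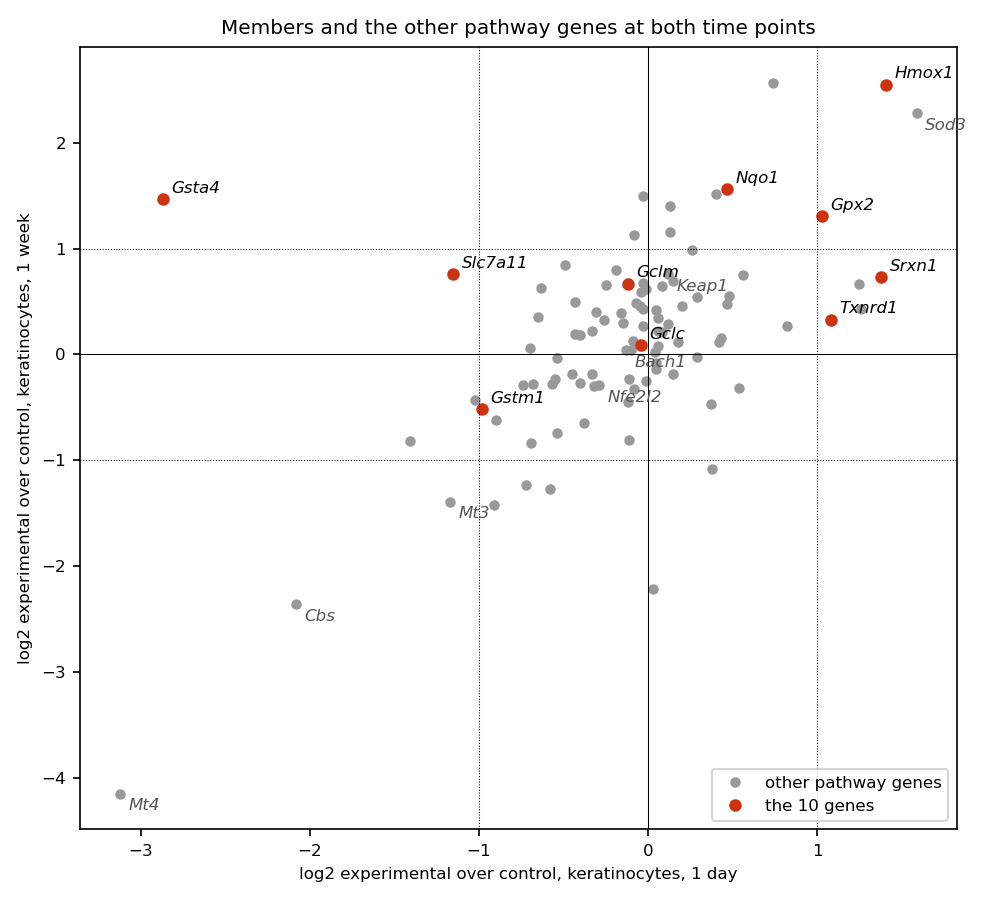
Log2 ratio of experimental over control level in keratinocytes at 1 day (x axis) and 1 week (y axis) for the 10 genes (red) and the other genes of the pathway list (grey); each point is 1 gene and dotted lines mark 2-fold. Gsta4 lies at -2.87 and 1.47, Hmox1 at 1.41 and 2.55, and Mt4 lowest on both axes at -3.12 and -4.15.

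Genes whose levels ran most like each member's were found by Pearson correlation of log2(level + 1) over the same 37 class sums, among 10455 genes, as a description with no p. For Txnrd1 these were Mapk6 (0.86), Sat1 (0.85) and Ssh1 (0.84), and for Srxn1 they were Cgref1 (0.81), Krt78 (0.79) and Elovl1 (0.78). Hmox1 ran with Ccdc9 (0.80), Cnn3 (0.78) and Gdf15 (0.76), and Slc7a11 with Rasa4 (0.73), Gdf15 (0.71) and Ednrb (0.70), so that Gdf15 was named for both. Gsta4 had Psmc2 (0.83), Mocs2 (0.82) and Gpam (0.81), Gstm1 had Mir99ahg (0.84), 9930021J03Rik (0.83) and Abi3bp (0.81), and Gpx2 had Nppc (0.84), Upb1 (0.84) and Scx (0.82). Gclc had Slc23a2 (0.86), Abca1 (0.84) and Trp53i13 (0.84), Gclm had Napepld, Hsd17b10 and Ptprk (0.85 each), and Nqo1 had Hoxb9 (0.83), Pdgfa (0.82) and Lmo1 (0.82). Between members, after Gclc with Gclm, the closest pairs were Slc7a11 with Hmox1 (0.62), Gpx2 with Nqo1 and Srxn1 with Hmox1 (0.59 each), Txnrd1 with Hmox1 (0.56) and Txnrd1 with Srxn1 (0.53). The correlations of Slc7a11, and its nearest genes, rest on class sums with few of its UMIs. Sebaceous-like cells, for example, held 4 and 5 at 1 day, and 0 in control at 1 week.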

How the data were processed

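Single-cell RNA from 4 libraries was measured as UMI counts. The authors deposited raw counts per gene and barcode from Cell Ranger 5.0.1, per the file headers, and mm10 and Seurat are named in the submitters' processing notes. The 1-day matrices also held hashtag counts, deposited by the authors in the same files. No per-sample column was left unused.

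A cell needed 1500 UMIs, 500 genes and no more than 15% of UMIs from mitochondrial genes. Scrublet's own threshold marked 37.5%, 14.7%, 0% and 0.00942% of cells, so the highest doublet scores were removed at fixed shares scaled to the number of barcodes instead (22.2%, 24.5%, 9.17% and 8.50%). Cells were clustered per time point (scanpy 1.11.5, Leiden resolution 1.0, 2000 variable genes, 30 components, 15 neighbours) without the members, the pathway list or mitochondrial genes. Classes of at least 50 cells were read, named from fixed markers with limits set after the data were seen. Clusters with markers of several cell types (117 control and 2179 experimental cells at 1 day, 2324 and 779 at 1 week) were left out. Counts were summed per class and library, and ratio intervals are exact conditional binomial (scipy 1.17.1, tested on simulated data). Gene positions are those of GENCODE M21, in which 99.8% of the gene IDs were found.

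The members and lists were chosen with earlier results of these data known. All 10 members are described. Of the pathway list, the 3 regulators and the genes past 2-fold the same way at both times are named, with the genes of counts of 5 or fewer and 4 others, all of these chosen after their values were seen. The 3 nearest genes of each member were taken among those with at least 10 CPM in a class sum of each time point. Alternatives were other scalings (edgeR 4.0.16, DESeq2 1.42.0), filters, cell sets and clusterings. The digestion used for each library (0.25% trypsin at 4 °C or 37 °C) is not given in the sources used here.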

Additional observations from a re-analysis of the deposited data

Results flagged for a closer look

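Gsta4 had opposite directions at the 2 time points. Its log2 ratio was -2.87 at 1 day and 1.47 at 1 week in keratinocytes, -4.46 and 1.53 in suprabasal-like cells, -1.12 and 1.72 in hair follicle-like cells, and -4.34 and 4.17 in cycling cells. Slc7a11 did the same in suprabasal-like cells, at -1.64 and 2.04, although its hashtag subsets overlapped at 1 day. At 1 week 207 and 196 of the 429 experimental suprabasal-like Gsta4 UMIs lay in clusters of 77 and 147 cells. The difference between the time points was not tested. The time points also differed in kit and animals, so that time cannot be told apart from them.

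Hmox1 had opposite directions between classes at 1 day, with log2 ratios of 1.07 in basal-like, 1.27 in suprabasal-like and 2.71 in sebaceous-like cells (3 and 19 UMIs), beside -2.43 in Langerhans-like cells. In the sebaceous-like cells the granular marker list summed to 169 in control and 2871 in experimental cells, and its part was not tested. The difference between these classes was not tested, and the Langerhans-like value rests on 6 cells in each library.

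Hashtag counts, which the labels do not explain, gave 1 clear tag in 60.2% of the 1-day control barcodes and in 35.4% of the 1-day experimental barcodes.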

How the results depend on the processing

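No paired analysis was possible because each group held 1 library, and for the same reason no replicate could be left out. Over 19 alternative settings at 1 day and 18 at 1 week, Gsta4 in keratinocytes was lower at 1 day in all 19 (log2 ratio -3.27 to -1.12) and higher at 1 week in all 18 (0.99 to 2.23). Hmox1 was higher in each (a log2 ratio of at least 0.49 at 1 day and 1.64 at 1 week), as was Srxn1 at 1 day (1.14 to 1.61). The count of members higher at 1 day was below 4 in 12 of the 19 settings and above it in 0. It was 2 instead of 4 with totals that leave out mitochondrial and ribosomal protein genes (Srxn1 and Hmox1 stayed, Txnrd1 read 0.99), and 2 with hair follicle-like cells only. The count lower at 1 day was 3 in 9 settings, with Gstm1 added, and 1 instead of 2, Gsta4, with the mean of single-cell levels and with hair follicle-like cells only. At 1 week the count higher was above 4 in 6 of 18 settings, at most 5, with Slc7a11 called in 5 settings and Srxn1 in 1. It was below 4 in 2 settings, and was 2 with hair follicle-like cells only (Gsta4 and Hmox1). Slc7a11 at 1 day was 0.34 with basal-like cells only, from 26 and 2 UMIs (interval -2.78 to 2.34), too few to read a direction. Gpx2 at 1 day, past 2-fold in 8 of 19 settings, was 0.74 with the Krt8-led cells counted. Txnrd1 and Srxn1 at 1 week reached -0.34 and -0.47 without loricrin-led clusters, an alternative chosen after seeing the data, as were those on the highest cells, hashtags, mixed and low-UMI clusters. In these counts the cause was not tested, and fewer cells were summed in the class settings. Basal-like cells alone were not run at 1 week (24 experimental cells). A library's keratinocytes held as few as 47 UMIs of Slc7a11 and 91 of Gsta4.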
